A study of Mus musculus with 5 samples.

Results

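The genes described are the 7 seminal vesicle secretory (Svs) protein genes Svs1, Svs2, Svs3a, Svs3b, Svs4, Svs5 and Svs6. They were taken by gene symbol from the 51912 gene IDs listed in each library. All 7 were found and all 7 passed the filter on low counts, which left 18615 genes. The genes were chosen by symbol with their levels in these same libraries and their deletion-to-control contrast known, so these values are a description, and nothing is read from the place of the 7 in the tests over all genes. The mix of isoforms, which the choice did not use, was tested.

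RNA was sequenced from tissue labelled mouse dorsolateral prostate of 5 males aged 7 months. The 2 tamoxifen controls carried Ghrflox/flox and the transgene SV40 C3(1) T-antigen+/0, and the 3 Ghr deletion mice carried both and ROSA26Cre-ERT2+/0. All 5 therefore carried the floxed growth hormone receptor gene and the T-antigen transgene, which the C3(1) promoter drives and which gives prostate tumours. Tamoxifen was given to every mouse at 250 mg/kg a day over 5 days, and the interval from the last dose to dissection was 1 month. The labels list no Cre for the controls, so presence of Cre and Ghr deletion cannot be told apart. Cre-ERT2 at ROSA26 is broadly expressed, so recombination is not limited to prostate cells.

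Seminal vesicles are paired glands that join the male tract beside the prostate and secrete most of the protein of mouse seminal fluid. Svs2, Svs3a and Svs3b are the large, semenogelin-like proteins that prostatic transglutaminase links into the copulatory plug. Svs4, Svs5 and Svs6 are small secreted proteins, and Svs1 resembles a copper amine oxidase. Apart from Svs1 they belong to a family in which the first exon codes for the signal peptide and is conserved, while the rest of the protein evolves fast. Androgens maintain their transcription in the gland.

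The 6 genes other than Svs1 lie side by side within 98.5 kb of chromosome 2 (GRCm38, GENCODE M21), with no other protein-coding gene between them. Svs2 (ENSMUSG00000040132, 164235929 to 164238466), Svs3b (ENSMUSG00000050383, 164254363 to 164256640) and Svs4 (ENSMUSG00000016998, 164275952 to 164278459) are on the minus strand. Svs3a (ENSMUSG00000017003, 164289268 to 164291500), Svs6 (ENSMUSG00000017000, 164316751 to 164318453) and Svs5 (ENSMUSG00000017004, 164332740 to 164334396) follow on the plus strand. Svs1 (ENSMUSG00000039215) is on the plus strand of chromosome 6 from 48986861 to 48991722, where the antisense gene 4930563H07Rik overlaps it.

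Upstream sequences of 2 pairs of cluster genes are shown because the pairs differ in how alike their levels were. The first pair is Svs5 and Svs6, which matched at 214 of 221 bases (96.8%) over the part upstream of the annotated start of Svs5. The Svs6 stretch was cut to the bases with a partner and ends short of its own annotated start at 164316751. The TATAAA at -32 of Svs6 is therefore not shown whole. That at -28 from the RefSeq start of Svs5 is also cut, since it spans the annotated start of Svs5. The sequences are from RefSeq (GRCm38.p6), 5′ to 3′ on the gene's strand, and capitals mark the 7 positions where the pair differs. Svs5 is at chr2:164332519-164332739 and Svs6 at chr2:164316501-164316721, both plus strand.
Svs5: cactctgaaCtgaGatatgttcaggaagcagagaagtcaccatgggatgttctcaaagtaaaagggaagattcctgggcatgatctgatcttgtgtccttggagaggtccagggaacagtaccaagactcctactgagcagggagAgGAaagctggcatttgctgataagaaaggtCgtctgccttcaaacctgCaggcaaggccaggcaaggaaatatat
Svs6: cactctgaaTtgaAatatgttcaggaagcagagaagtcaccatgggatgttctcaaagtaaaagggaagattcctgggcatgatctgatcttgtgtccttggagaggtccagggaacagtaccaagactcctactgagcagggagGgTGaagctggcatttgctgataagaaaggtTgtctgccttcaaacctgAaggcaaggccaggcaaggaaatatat

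The other pair is Svs3a (chr2:164289017-164289266, plus strand) and Svs3b (chr2:164256644-164256893, minus strand), which matched at 244 of 250 bases (97.6%). Capitals again mark the differing positions, 6 here.
Svs3a: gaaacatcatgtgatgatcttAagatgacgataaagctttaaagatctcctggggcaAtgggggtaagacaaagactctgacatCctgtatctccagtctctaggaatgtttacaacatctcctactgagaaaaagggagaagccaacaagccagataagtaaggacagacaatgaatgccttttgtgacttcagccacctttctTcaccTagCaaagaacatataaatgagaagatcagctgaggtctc
Svs3b: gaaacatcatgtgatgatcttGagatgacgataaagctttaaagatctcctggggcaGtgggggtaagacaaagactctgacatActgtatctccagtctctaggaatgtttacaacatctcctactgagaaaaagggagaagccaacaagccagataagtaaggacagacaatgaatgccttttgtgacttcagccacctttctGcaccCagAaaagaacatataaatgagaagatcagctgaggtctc

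Svs2, whose levels were most like those of Svs5, matched Svs5 less closely upstream than Svs6 did. The Svs2 stretch upstream of the outermost annotated start is at chr2:164238467-164238591, minus strand, with capitals marking TATAAA. It holds only 125 of the 250 bases before the RefSeq start of Svs2, since the annotated starts of this gene differ.
Svs2: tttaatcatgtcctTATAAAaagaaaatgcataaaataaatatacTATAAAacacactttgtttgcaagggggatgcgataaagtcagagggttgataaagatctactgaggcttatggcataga

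Over whole RefSeq promoter windows of 300 bases (250 before to 50 after the start), Svs2 and Svs5 had 46.5% identity with gaps counted, close to the 45.2% of Svs2 and Svs1. Svs5 and Svs6 had 93.8% and Svs3a and Svs3b 97.7%. The other pairs among Svs3a, Svs3b, Svs4, Svs5 and Svs6 had 54.4% to 57.8%. With gaps left out, Svs2 and Svs5 had 66.4%, within the 66.1% to 69.7% of those other pairs, and Svs2 and Svs1 had 59.5%. The RefSeq starts of Svs2 and, to a smaller extent, Svs5 differ from their outermost annotated starts. Windows and motif positions may therefore be offset between genes. TATAAA on the gene's strand was present in the windows of 6 of the 7 genes, all but Svs1, and in 8.32% of all 32851 windows. It began at position -28 in Svs3a, Svs3b, Svs4 and Svs5 and at -32 in Svs6, with another match at -182 in Svs4, while in Svs2 it began at -236 and -205. AGAACA or its reverse complement TGTTCT was present on either strand in 5 of the 7 (Svs1, Svs3a, Svs3b, Svs5 and Svs6) and in 19.0% of all windows. CCAAT or ATTGG was in 3 windows (37.4% of all), TGTTTAC or GTAAACA in those of Svs3a and Svs3b (3.65% of all), and TATTTAC or GTAAATA in none (3.04% of all). No 2 of these matches shared a base, and AGAACA directly preceded TATAAA in Svs3a and Svs3b.

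The 5 libraries differed in how much of their RNA came from the Svs genes. Together the 7 genes took 33.9% of counts in control replicate 1 and 0.817% in control replicate 2. In the deletion libraries they took 24.2%, 26.3% and 0.345% in replicates 1, 2 and 3 (the half-width of every 95% Wilson interval was 0.0157 percentage points or less). High and low libraries were thus present in both groups. Total counts were 13812454 in control replicate 2 and 28536636 to 47656212 in the other libraries. In bulk tissue, fewer cells of a type and less RNA per cell cannot be told apart.

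Ghr, the targeted gene, had 336 and 646 counts in the controls, against 232, 668 and 652 after deletion. In CPM it read 14.4 and 31.3 in the controls, against 8.13, 20.9 and 12.1 after deletion, so the groups overlapped (log2 fold change -0.73, SE 0.52, edgeR adjusted p = 0.995). The counts are of the whole gene and do not resolve the floxed part, so they do not check the labels.

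The tissue label was checked against marker genes. The 5 prostate markers summed to 43.1 CPM (counts scaled to library size) in control replicate 1, 0.871 in control replicate 2 and 1.26 to 2.13 in the deletion libraries. Pbsn, which codes for probasin, was at 411 counts in control replicate 1 and at 1 to 8 elsewhere, and Msmb was at 0 in all 3 deletion libraries. Of the 6 vas deferens and epididymis markers 4 were tested and 0 passed. Their sum was 44.8 and 1966 CPM in the controls, against 5380, 4728 and 88.2 CPM after deletion. Akr1b7 and Crisp1 were the largest in control replicate 2 and deletion replicates 1 and 2, and Spink8 in control replicate 1 and deletion replicate 3. Lcn5 was at 0 in both controls and deletion replicate 3. The urothelium list summed to 164 CPM in deletion replicate 3 and 25.2 to 80.0 elsewhere, and Upk3a had 1046 counts there and 0 in the other 4 libraries. Prostate markers were thus at very low levels in 4 of the 5 libraries, which goes against the tissue label, and the tissue sampled may not match it. The part of tissue content in the Svs levels was not tested.

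The make-up of the Svs transcripts differed between the groups more clearly than their sum, which overlapped. In deletion replicates 1 and 2, Svs2 and Svs5 made up 99.4% and 98.8% of the family's TPM (a level per transcript length). In deletion replicate 3 they made up 83.6%, and in the controls 50.7% and 47.7%. Svs4 held 30.7% and 45.8% in the controls, against 0.540%, 1.14% and 15.1% after deletion. Svs6 held 11.7% and 4.46% against 0.0133%, 0.00690% and 0.889%. The 2 controls differed from each other by 21.5 percentage points in family make-up (the summed absolute difference of shares, divided by 2). The deletion libraries differed among themselves by 13.6 to 23.1 points and from the controls by 40.3 to 52.6 points. Control replicate 2 and deletion replicate 3, both low in Svs transcripts, were 40.3 points apart.

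**Figure D1:**
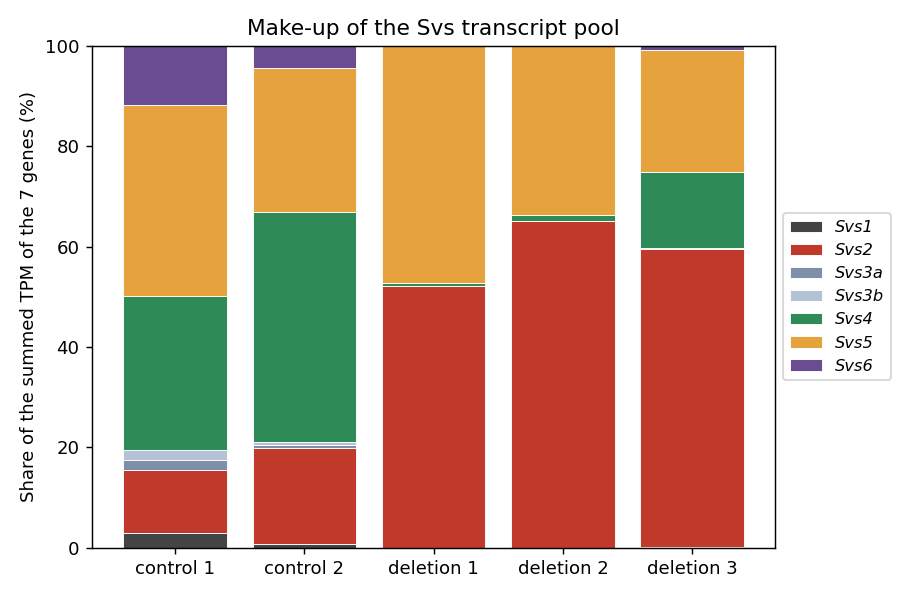
Share of the summed TPM of the 7 Svs genes (%, y axis) held by each gene in each of the 5 libraries (x axis). Svs2 and Svs5 fill 99.4% and 98.8% of the bars of deletion replicates 1 and 2, against 50.7% and 47.7% in the controls.

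Svs2, the main clotting protein of the mouse seminal vesicle, was the member of highest TPM in all 3 deletion libraries. It had 21401 and 1560 TPM in the controls, against 71397, 115779 and 2241 TPM after deletion. It had rank 3 of all genes by TPM in deletion replicates 1 and 2. On the CPM scale, which compares a gene across libraries, it read 193471 and 2213 in the controls, against 191558, 270169 and 1753 after deletion. Each group held high and low libraries, and the groups overlapped. The group means were 97842 ± 135240 CPM (SD, n = 2) and 154493 ± 137994 CPM (SD, n = 3), a log2 fold change of 0.66 (SE 2.25) between deletion and control.

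Svs5, a small secreted member at the other end of the cluster, had the pattern nearest to that of Svs2. It had 64551 and 2344 TPM in the controls, against 64704, 59808 and 913 TPM after deletion. Control replicate 2 and deletion replicate 3 were the low libraries. In CPM, the first control was 3.34-fold above deletion replicate 1 and 4.11-fold above deletion replicate 2. Its CPM were 164918 and 935 against 49447, 40133 and 204, again overlapping, with a log2 fold change of -1.47 (SE 2.21). The TPM ratio of Svs2 to Svs5 was 0.332 and 0.665 in the controls, against 1.10, 1.94 and 2.45 after deletion.

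Svs6, the neighbour of Svs5 with the near-identical upstream sequence shown above, did not share its levels. It had 19863 and 365 TPM in the controls, against 18.2, 12.3 and 33.6 TPM after deletion. All deletion libraries were below both controls, and the 3 lay within a narrow range although their Svs2 and Svs5 levels did not. Its counts were 958566 and 2392 in the controls, against 309, 207 and 319 after deletion. The low levels did not rest on a few reads, but whether reads carried over between libraries are part of them was not tested. The TPM ratio of Svs5 to Svs6 was 3.25 and 6.42 in the controls, against 3561, 4878 and 27.2 after deletion. The log2 fold change of Svs6 was -11.37 (SE 2.33), and -3.90 without control replicate 1.

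Svs4, a small secreted protein gene in the middle of the cluster, lay between these patterns. Its levels were 52123 and 3748 TPM in the controls, against 739, 2032 and 570 TPM after deletion. In CPM it read 171213 and 1926 in the controls, against 713, 1718 and 160 after deletion. The deletion libraries were all lower, but the lower control exceeded the highest of them only 1.12-fold. The log2 fold change was -6.65 (SE 2.01), and -1.15 without control replicate 1. Svs2 was below Svs4 per length in the controls, at a TPM ratio of 0.411 and 0.416. It was above Svs4 in the deletion libraries, at 96.6, 56.98 and 3.93.

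**Figure D2:**
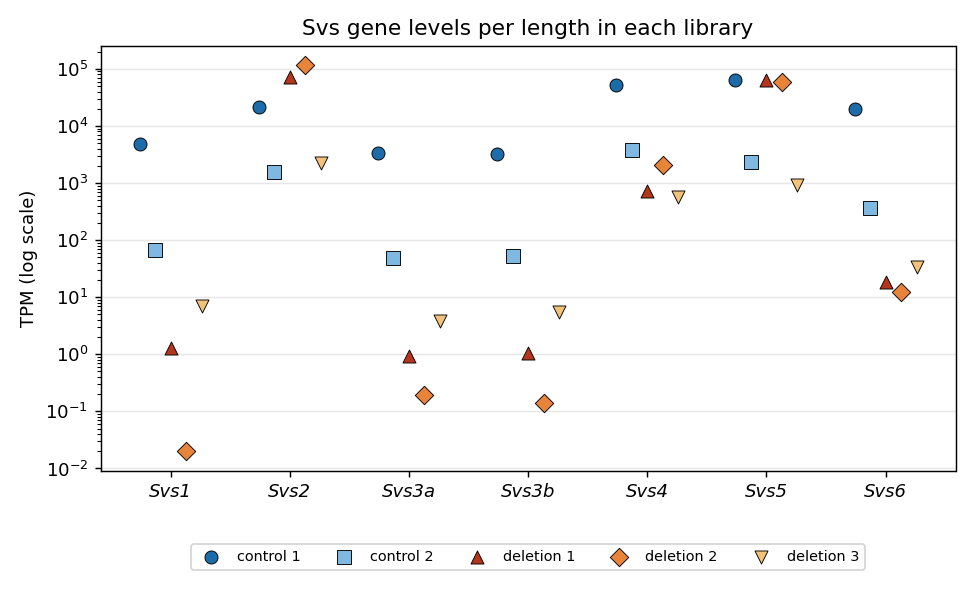
TPM of each Svs gene (log y axis) in the 2 control and 3 deletion libraries, 1 point per library. Svs2 and Svs5 are high in control replicate 1 and deletion replicates 1 and 2, whereas Svs1, Svs3a, Svs3b and Svs6 are high in control replicate 1 and below both controls in every deletion library.

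Svs3a and Svs3b, the near-identical copies that code for another clot protein, had similar levels in each library. Svs3a had 3408 and 47.7 TPM in the controls, against 0.920, 0.190 and 3.88 TPM after deletion. Svs3b had 3278 and 51.9 TPM against 1.05, 0.140 and 5.56. For both genes the deletion libraries were all below both controls, and which copy was higher differed between libraries. Their transcripts had 88.5% identity and their coding sequences beyond the first exon 99.0%, so reads could be split between them by the counting, and each value is uncertain. Summed, the 2 copies had 6687 and 99.6 TPM in the controls, against 1.97, 0.330 and 9.44 TPM after deletion. The log2 fold changes were -12.92 (SE 2.62) and -12.53 (SE 2.67), and -5.10 and -4.89 without control replicate 1.

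Svs1, the amine oxidase relative on chromosome 6, had a pattern like that of the Svs3 pair although it lies on another chromosome. It had 4884 and 66.5 TPM in the controls, against 1.29, 0.02 and 7.00 TPM after deletion. All deletion libraries were below both controls, and deletion replicate 2 had 2 counts, under the floor of 3 counts. Its log2 fold change was -12.85 (SE 3.16), and -5.005 without control replicate 1. In deletion replicate 1 the counts of Svs1, Svs3a and Svs3b were 0.00968%, 0.00979% and 0.0116% of those in control replicate 1. In control replicate 2 the counts of Svs1, Svs3a, Svs3b and Svs6 were 0.193%, 0.196%, 0.222% and 0.250% of those in control replicate 1. Those of Svs2, Svs4 and Svs5 were 1.01%, 0.994% and 0.501%. In deletion replicate 3 Svs1, Svs3a, Svs3b and Svs6 were at 0.0284%, 0.0224%, 0.0337% and 0.0333%. There Svs2, Svs4 and Svs5 were at 2.09%, 0.216% and 0.286%. Whether reads carried over between libraries are part of any of these low counts was not tested. Reads of the overlapping antisense gene cannot be told apart where strand was not used in counting. That gene had 0.43 CPM in control replicate 1 and 0 in the other libraries.

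In all, 5 of the 7 genes had every deletion library below both controls, which 10.2% of the 18615 tested genes also had, and 0 had every deletion library above (9.43%; either direction, 19.6%). The median log2 fold change of the 7 was -11.37, against 0.0045 over all tested genes. By edgeR's quasi-likelihood test with Benjamini-Hochberg adjustment over all genes, 0% of genes passed, the 7 included (smallest adjusted p = 0.985). Unadjusted p was under 0.05 for 915 genes. DESeq2 passed 164 genes (0.881%), 128 lower (0.688%) and 36 higher (0.193%), with 5 of the 7 among those lower. The 7 were chosen with this contrast known, so nothing is read from these counts. Without control replicate 1 the median of the 7 was -3.90, and it was -3.74 with deletion replicate 3 left out too.

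The order of the genes by TPM was the same in deletion replicates 1 and 3: Svs2, Svs5, Svs4, Svs6, Svs1, Svs3b and Svs3a. In deletion replicate 2 the first 4 came in that order as well. In control replicate 1 Svs5 led, followed by Svs4, Svs2 and Svs6, and in control replicate 2 Svs4 led, followed by Svs5, Svs2 and Svs6. Svs4 and Svs5 took different orders in the 2 controls, whereas Svs5 was above Svs4 in all 3 deletion libraries. Svs3a and Svs3b took different orders in both groups, and Svs1 was above both in deletion replicates 1 and 3 and below both in deletion replicate 2.

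Along chromosome 2 the levels did not follow position. The ends of the cluster, Svs2 and Svs5, were the high genes of deletion replicates 1 and 2, and Svs3b, Svs3a and Svs6 between them had at most 10.8 CPM there. Svs4, in the middle, read 713 and 1718 CPM in these libraries. Wfdc15b, a WAP-domain gene outside the cluster whose start lies at -16.8 kb from that of Svs2, read 52.2 and 114 CPM in the controls, against 62.4, 166 and 96.2 after deletion. Slpi, a leukocyte protease inhibitor and the next protein-coding gene beyond Svs5, read 0.385 and 1.02 against 2.84, 5.20 and 0.817. Both overlapped between groups, at levels far under those of Svs2. Of 29 listed genes of the surrounding WAP-domain region, 12 were tested and 0 passed in edgeR or DESeq2 (edgeR adjusted p of 0.991 to 0.999). Their median log2 fold change was 0.20, and 1 of them, Wfdc8, had all deletion libraries below both controls, against 10.2% of all tested genes. The 4 of highest level, Wfdc15b, Sdc4, Stk4 and Pigt, had mean levels of 98.2, 61.4, 40.2 and 33.3 CPM.

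**Figure D3:**
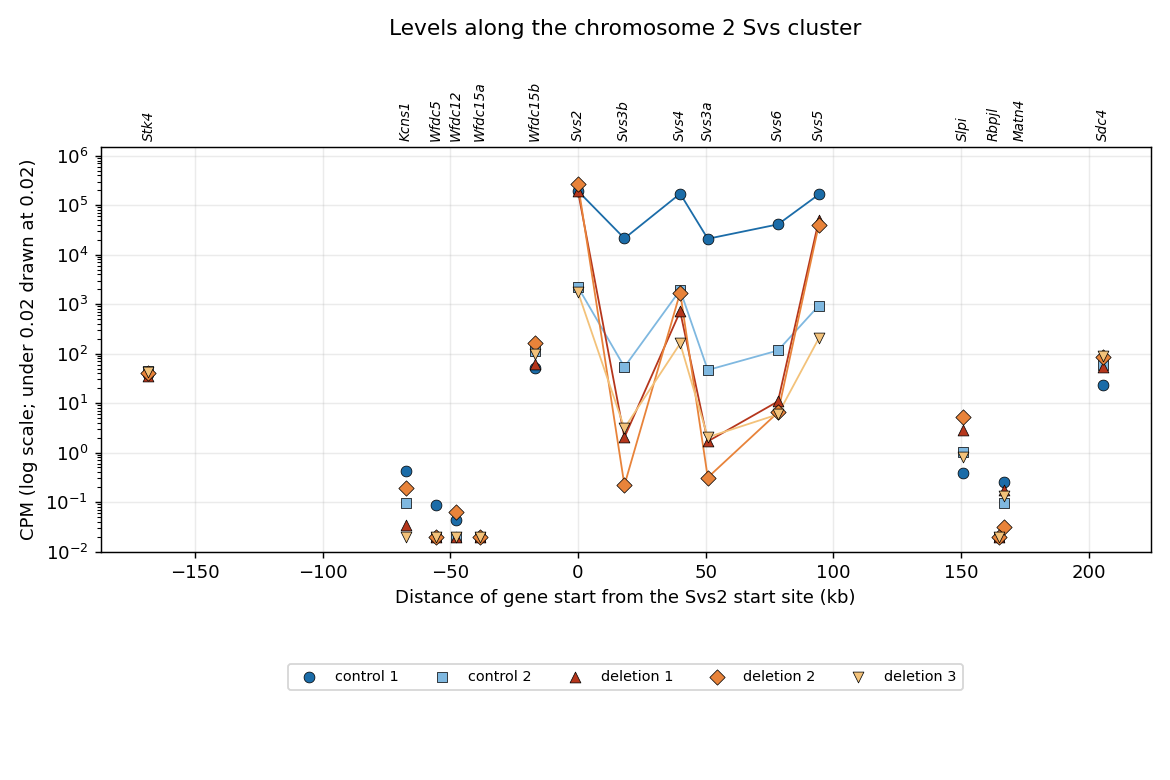
CPM of protein-coding genes (log y axis, values under 0.02 drawn at 0.02) against the distance of each gene's start from that of Svs2 (kb), 1 point per library, with lines joining the 6 cluster genes. In deletion replicates 1 and 2 Svs2 and Svs5 are at 40133 CPM or more, Svs4 is at 713 and 1718 CPM, and Svs3b, Svs3a and Svs6 are at 10.8 CPM or less.

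Beside Svs1 on chromosome 6, the amine oxidase-like gene Doxl2 was at 1512 counts in the first control, 3 in the second and 0 in each deletion library. Aoc1, which codes for the enzyme diamine oxidase, lies farther along. It read 1.33 and 8.57 CPM in the controls, against 6.62, 2.94 and 9.48 after deletion, with overlapping groups.

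Transcript structure separated Svs1 from the rest. Svs1 has 5 exons and a transcript of 2775 bases, of which 2460 are coding. The first-listed transcripts of the cluster genes have 3 exons, or 4 in Svs6, and are 535 to 1695 bases long, with 297 to 1125 coding bases. In the 6 cluster genes the first exon holds 70 to 76 coding bases. The coding part of the first exon was more alike than the remaining coding sequence in 15 of 15 pairs, with a median identity of 68.4% (59.0% to 100%) against 30.6% (18.0% to 99.0%). Gaps counted as mismatches, so unlike lengths lowered the second value. For Svs5 and Svs6 the values were 82.9% and 47.2%, and their whole transcripts had 54.8% identity, well below that of the Svs3 pair.

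The deposited tables also give each gene's mean transcript length, from which the mix of isoforms was computed for genes with 2 transcripts. The second transcripts of Svs2 and Svs5 have 2 exons and 1479 and 380 bases. The 3-exon transcript made up 81.4% and 70.5% of Svs2 in the controls, against 76.0%, 79.4% and 86.4% after deletion, with overlapping groups. For Svs5 it was 94.2% and 95.4% against 98.6%, 98.0% and 98.1%, so every deletion library was above both controls. The Svs5 means were 94.8% ± 0.787 (SD, n = 2) and 98.2% ± 0.327 (SD, n = 3). An exact two-sided permutation test gave p = 0.1 for Svs5, the smallest value 2 against 3 libraries allow, and p = 0.5 for Svs2. Adjusted over the 3 genes compared, Svs3a included, the Svs5 value was p = 0.3 by the same exact test.

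The genes nearest to Svs2 and to Svs6 over the 5 libraries are listed as a description. Likeness was the root-mean-square difference of log2(CPM + 0.1), each gene centred on its mean, over 7890 genes with a mean of at least 10 CPM. Among the members, Svs2 was 1.04 from Svs5, 3.37 from Svs4 and 5.19 from Svs6. At that distance Svs2 and Svs6 could not share any of their nearest genes, so nothing is read from the lack of overlap. Svs6 was 1.11 from Svs3a, 1.33 from Svs3b, 1.99 from Svs4 and 2.35 from Svs1. Svs3a and Svs3b were 0.314 apart.

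Outside the family the nearest to Svs2 were the beta-defensin gene Defb42 (0.676), the secreted cytokine-like Fam3b (1.01), the cytochrome P450 gene Cyp3a57 (1.19), the oxysterol-binding protein gene Osbp2 (1.505) and the metallothionein gene Mt2 (1.59). Defb42 read 180 and 7.89 CPM in the controls, against 269, 317 and 2.08 after deletion, high where Svs2 was high. The nearest to Svs6 were Ceacam10 (0.530), a seminal vesicle glycoprotein gene, the nuclease gene Dnase2b (0.603), the glutamate decarboxylase gene Gad2 (0.858) and the protease inhibitor genes Spinkl (0.863) and Spink1 (0.902). Dnase2b read 1513 and 3.58 CPM in the controls, against 0.421, 0.0940 and 0.464 after deletion, the 0.0940 being 3 counts.

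**Figure D4:**
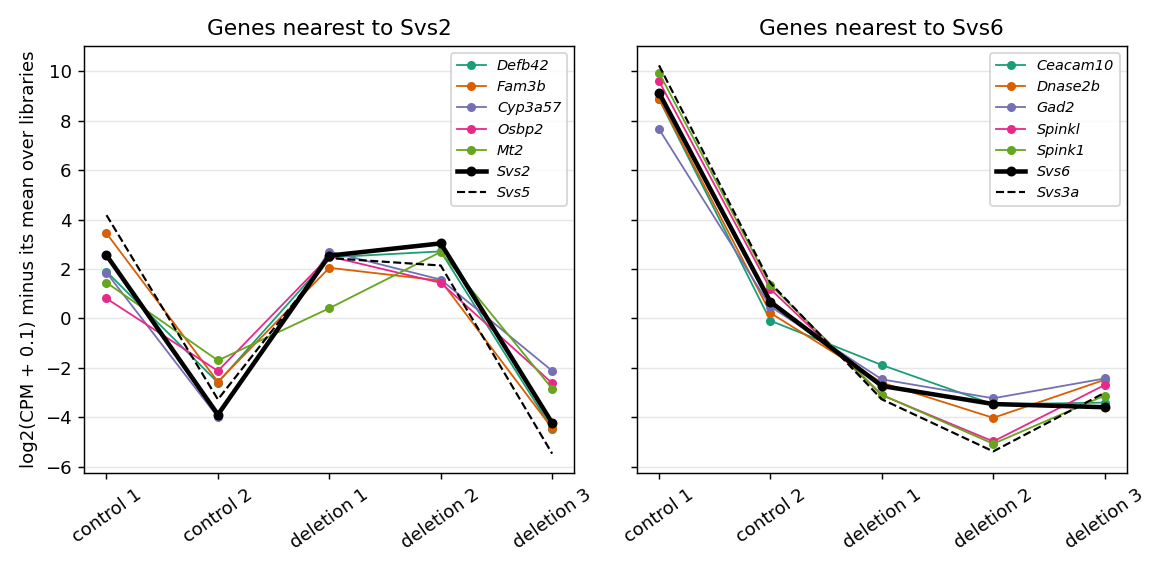
log2(CPM + 0.1) minus its mean over the 5 libraries (y axis) for the 5 genes nearest to Svs2 (left) and to Svs6 (right), with Svs2, Svs6 and 1 further member each in black; lines only join points of 1 gene. The Svs2 set is high in control replicate 1 and deletion replicates 1 and 2, and the Svs6 set is high in control replicate 1 alone.

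Other secretory genes of the seminal vesicle included some with levels like Svs6 and some whose groups overlapped, as those of Svs2 did. Of 15 listed genes 13 were matched by symbol, 9 had a mean of at least 1 CPM and 8 were tested. None of the 8 passed in edgeR (5 at an unadjusted p under 0.05), and DESeq2 passed 5, all lower: Spinkl, Spink1, Ceacam10, Sva and Sbp (0.688% of tested genes were called lower). In the same 5 every deletion library was below both controls (10.2% of all tested genes), and the median log2 fold change of the 8 was -8.23. This list was chosen with earlier results of these data known, so nothing is read from its counts of calls. Sva, a sperm-coating antigen, had 303504 and 509 counts in the controls, against 18, 0 and 80 after deletion. Pate4, a small secreted protein also called Svs7, read 27670 and 13088 CPM in the controls, against 32607, 29341 and 6707 after deletion. Serpine2, a serine protease inhibitor, read 1540 and 280 against 1471, 1061 and 274 CPM. In CPM, Pate4 and Serpine2 were thus highest in control replicate 1 and deletion replicates 1 and 2, as Svs2 and Svs5 were. The range of Pate4 and Serpine2 was much narrower than that of Svs2, and their groups overlapped. In TPM control replicate 1 was instead the lowest library for both, at 5115 for Pate4 (14454 to 20998 elsewhere) and 130 for Serpine2 (141 to 404 elsewhere).

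Genes whose products link, cut or bind the clot proteins were listed as well. Of 34 genes 17 were tested, 8 with a higher and 9 with a lower fold change. None passed in edgeR (1 at an unadjusted p under 0.05, adjusted p of 0.991 to 0.999) or in DESeq2, and the median was -0.17. Tgm4, the prostatic transglutaminase that cross-links Svs2 and Svs3, read 9.03 and 0.678 CPM in the controls, against 0.561, 1.75 and 0.872 after deletion. It was thus scarce also in the deletion libraries where Svs2 was abundant. Plau, the urokinase gene, read 299 and 63.4 CPM in the controls, against 2291, 718 and 39.6 after deletion, whereas in TPM control replicate 1 was its lowest library (22.4, against 29.7 to 572 elsewhere). Clu, a secreted chaperone, read 271 and 15115 CPM against 1438, 14538 and 11234, lowest in control replicate 1. Crisp1, an epididymal sperm-binding protein, read 1.28 and 712 CPM against 1664, 1109 and 24.98. Fn1, the fibronectin gene, read 91.8 and 121 against 138, 82.4 and 134 CPM. All 5 overlapped between groups. Mmp2 and Klk1b27 were the 2 of 17 with all deletion libraries below both controls, near the 10.2% of all tested genes.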

How the data were processed

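Per the labels' protocols, total RNA of flash-frozen tissue was made into Illumina TruSeq Stranded Total RNA libraries. RSEM 1.3.0, STAR 2.5.3a, bcl2fastq 2.20.422 and the GRCm38 build are listed in the submitters' processing notes. The sources used here do not state the annotation release or strand setting. Per the file headers, the authors deposited RSEM expected counts (not normalized), TPM, FPKM (not used here) and transcript lengths. Symbols matched 99.5% of IDs.

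Expected counts were rounded and entered, with the 5 libraries together, into edgeR 4.0.16 under R 4.3.3. The steps were filterByExpr, TMM, robust quasi-likelihood fit, group as the only term and calls at an adjusted p under 0.05. The fit was also run on counts simulated from the trended dispersion rather than from each gene's own spread. Nothing on the absence of calls is read from that run. SE is the log2 fold change over the root of its F statistic. CPM used the TMM-adjusted sizes (factors 0.491 to 1.61), and the floor of 3 counts was 0.0557 to 0.145 CPM. Counting intervals cover counting error only. Motifs and identities (global alignment: match 2, mismatch -1, gap opening -4, extension -0.5) used Biopython 1.88. Groups came from titles, and the series calls the libraries biological replicates. Members and lists were chosen with earlier results of these data known, and the rule for other genes was the 4 of highest mean CPM per list and the 5 nearest to Svs2 and to Svs6. Genes outside it (Ghr, Tgm4, Serpine2, Slpi, Sbp, Doxl2, Aoc1, the markers and those of small counts) were named after their values were seen. Alternatives were other scalings, DESeq2 1.42.0, no filter, a replicate block, TPM and left-out libraries.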

Additional observations from a re-analysis of the deposited data

How the results depend on the processing

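The count of genes passing was 0 with RLE scaling and with no filter, 46 with total library size only, 164 with DESeq2, 8 with the replicate number as a block, 0 to 48 leaving out 1 library at a time (the 48 with control replicate 2 left out; leaving out deletion replicate 3 gave 2) and 85 without control replicate 1 and deletion replicate 3. Total-size scaling moved the median of all genes from 0.0045 to 0.23. Deviations from group means correlated at 0.13 for replicate number 1 and -0.14 for number 2. With 2 controls, their deviations are mirror images of each other. These values therefore cannot decide whether libraries of the same number were paired. The median log2 fold change of the 7 genes was -11.37 in the main analysis, -12.37 to -3.90 leaving out 1 library, -3.74 without those 2 libraries and -7.10 on log2(TPM + 0.1). Svs1, Svs3a, Svs3b, Svs4 and Svs6 were lower under all 12 alternatives. Svs2 ranged from -0.33 (without control replicate 2) to 6.13 (without control replicate 1) and was -0.018 without deletion replicate 2 and 6.70 without the 2 libraries. Svs5 was 1.84 with the replicate block, 0.31 on log2(TPM + 0.1), 5.58 without the 2 libraries, and -2.46 to 5.00 leaving out 1. The cause was not tested. The family's share was 17.0%, 13.7%, 17.8% and 0.377% of TPM in control replicate 1 and deletion replicates 1, 2 and 3. With 7SL, 7SK, ribosomal and mitochondrial RNA left out of the total it was 51.7% and 0.971% in the controls, against 29.0%, 29.98% and 0.392% after deletion. At a mean of at least 100 CPM, 1 of the 5 genes nearest to Svs2 and 4 of the 5 nearest to Svs6 were shared.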

Other observations

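The count ratio of Svs1 to Svs3a was similar in 4 libraries of very unlike level and not in deletion replicate 2, where it was 0.2 on 2 counts of Svs1. Svs1 had 3.73 times the counts of Svs3a in control replicate 1, 3.66 times in control replicate 2, 3.69 times in deletion replicate 1 and 4.72 times in deletion replicate 3, where Svs1 had 1828687, 3527, 177 and 519 counts. The count of Svs6 in deletion replicate 1 was 0.0322% of that in control replicate 1. The ratio of Svs6 to Svs3a was 1.96 and 2.48 in the controls, against 6.44, 20.7 and 2.90 after deletion, the 20.7 resting on 10 counts of Svs3a after rounding. These values are descriptions of 5 libraries.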
